A study of Mus musculus with 3 samples.

Results

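The IL-1 and IL-18 system of RAW264.7 macrophages was described through 9 genes: the agonist ligands Il1a, Il1b and Il18, the antagonist or decoy genes Il1rn, Il1r2 and Il18bp, and the signalling receptor chains Il1r1, Il1rap and Il1rl1. The members were selected on their gene names, 9 of the 36870 gene names on the array, and every probe that carried 1 of these names was used, 19 in all. The family itself was proposed with earlier results of these arrays in view, among them the differences with LOC1 and LOC3 and the deposited ratios, so the values are a description with no test. RAW264.7 cells are an established mouse line with the properties of macrophages, and LPS, from the outer membrane of Gram-negative bacteria, is the ligand of the Toll-like receptor 4. RNA was hybridised to 1-colour Agilent mouse arrays from 3 groups: macrophages challenged with LPS for 3 h and given no lactobacilli, macrophages treated with Lactiplantibacillus plantarum LOC1 before the same challenge, and macrophages treated with the LOC3 strain before it. Both strains were isolated from fresh tea leaves, and the labels give 12 h of treatment with them, where the methods give a longer time. All 3 groups received LPS, and each was 1 array of 1 cell line, so no SD, test or p-value could be given for any difference between them. The array of unchallenged macrophages was not analysed here, and it enters only through the ratios that the authors deposited.

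IL-1α and IL-1β bind the receptor IL-1R1, which then recruits the shared chain IL-1RAP and signals through MyD88 to NF-kB. The system carries its own brakes: IL-1RN occupies IL-1R1 without signalling, IL-1R2 binds IL-1 but lacks a signalling domain, and IL-18BP captures IL-18 in solution. ST2, the product of Il1rl1, pairs with IL-1RAP in the receptor for IL-33 and also exists as a soluble decoy. In macrophages, LPS is known to induce the precursor of IL-1β, which is released after cleavage by caspase-1.

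With either strain before LPS, the transcript of the decoy receptor Il1r2 was the lowest of the family relative to LPS alone, by 11.2-fold with LOC1 and 7.27-fold with LOC3. Il1rl1 was also lower, by 3.11-fold and 2.89-fold, and the brightest probe of Il1b by 1.93-fold and 1.63-fold. Il18bp was higher, by 1.79-fold and 1.74-fold. By their brightest probes, Il1a, Il18, Il1rn and Il1rap lay no more than 1.23-fold from LPS alone with both strains, and Il1r1 was not well above background on any array. The family therefore did not move as 1 block, and its brakes lay at both ends of the range, with Il1r2 lowest and Il18bp highest.

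The sequences of 3 probes are shown, because 2 of them measure different stretches of Il1b and the other reads Il1r2 across an intron. The array files place probe 2 of Il1b at chr2:129190880-129190939, probe 3 of Il1b at chr2:129195465-129195524, both on the minus strand, and probe 2 of Il1r2 on the plus strand within chr1:40168971-40171918, all in mm9. Probe 2 of Il1b is assigned to the RefSeq transcript NM_008361 and keeps 1 open reading frame over its 60 bases. Probe 3 is assigned to the Ensembl transcript ENSMUST00000155994 and starts 5118 bases of chromosome, introns included, from the start of probe 1, the brightest probe, which is assigned to NM_008361. The capitals in probe 3 mark TTTT followed within 8 bases by CAG, letters of the kind found at the end of an intron. No exon map of this transcript was used here, so whether the probe spans an intron end was not tested. The 60 bases of the Il1r2 probe lie within 2948 bases of genome.
Il1b probe 2: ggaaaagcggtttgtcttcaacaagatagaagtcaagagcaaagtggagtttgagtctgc
Il1b probe 3: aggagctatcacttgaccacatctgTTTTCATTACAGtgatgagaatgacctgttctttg
Il1r2 probe 2: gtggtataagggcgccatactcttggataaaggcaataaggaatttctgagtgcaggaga

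Signals are given as the intensity of the spot, background-corrected by the scanner software. Differences were taken on the log2 scale after subtraction of the 75th percentile of each array, which stood at 554.8, 513.2 and 516.3 for LPS, LOC1 and LOC3. Where a signal did not clear the background by the scanner's call, the lowest signal of that array that did took its place. The fold is then only a limit, and "at least" stands before it. The error beside a log2 difference comes from the error model of the scanner software, and covers the measurement of 1 pair of spots and not the spread between cultures. Intensities of different probes are not comparable with each other, so each probe is read only across the 3 arrays. Since RNA of whole cultures was measured, fewer cells that express a gene and less RNA per cell cannot be told apart.

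**Figure D1:**
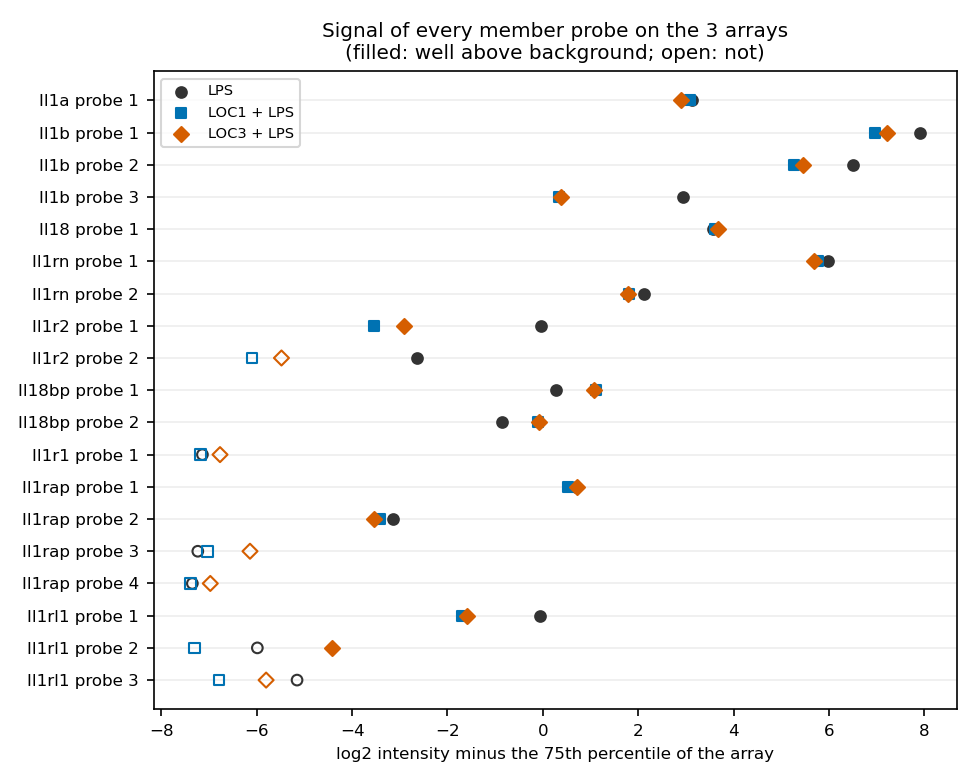
Log2 intensity minus the 75th percentile of the array (x axis) for each of the 19 member probes (y axis, numbered from the brightest within a gene) with LPS (circles), LOC1 + LPS (squares) and LOC3 + LPS (diamonds); filled symbols are well above background and open ones are not. The LPS symbol stands apart on the right for the 3 probes of Il1b, the 2 of Il1r2 and probe 1 of Il1rl1, and on the left for the 2 of Il18bp.

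Among the agonists, Il1b was measured by 3 probes, all well above background on every array. The brightest read 134524 with LPS, 64471 with LOC1 and 76772 with LOC3. Both lactobacillus-treated arrays lay under the LPS array, at log2 differences of -0.95 and -0.71, each with an error of 0.20. Probe 2 read 50150, 19658 and 22530, and its differences were -1.24 with LOC1 and -1.05 with LOC3. Probe 3 read 4266 with LPS but only 654 with LOC1 and 677 with LOC3, a difference of -2.59 and of -2.55. So the 3 probes gave 1 direction and unequal sizes, 1.93-fold, 2.36-fold and 6.04-fold lower with LOC1, and 1.63-fold, 2.07-fold and 5.87-fold lower with LOC3.

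The gap between probe 3 and probe 1 of Il1b was 1.645 on the log2 scale with LOC1 and 1.847 with LOC3, with an error of 0.29 for either. The same pair of probes thus differed in both comparisons by more than the error of the scanner model, whereas probes 1 and 2 differed by 0.29 and 0.345, close to it. Which transcript forms the probes hybridise was not tested.

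Il1a, the other ligand of IL-1R1, was measured by 1 probe at chr2:129125994-129126053 (mm9). The array of LPS alone read 4878, that of LOC1 4335 and that of LOC3 3866. The differences of -0.06 and -0.23 stood beside an error of 0.20 each, and were far smaller than those of Il1b on the same arrays. Il18, an interferon-γ inducing cytokine made as an inactive precursor, read 6613, 6235 and 6591, with differences of 0.03 and 0.10. None of these differences reached 2 times its scanner error. Probes printed repeatedly gave a smaller SD, 0.06 for bright spots, which both genes exceeded with LOC3 and neither with LOC1. Neither figure covers the spread between cultures.

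Of the antagonists, Il1rn encodes the receptor antagonist of IL-1. Its brighter probe read 34987 with LPS, 28069 with LOC1 and 26438 with LOC3, and the other read 2418, 1805 and 1786. The differences were -0.21 and -0.30 for the first and -0.31 and -0.33 for the second, with an error of 0.20. Both probes placed the LPS array highest, by 1.15-fold to 1.26-fold.

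Il1r2 encodes the decoy receptor that binds IL-1 without signalling. Its brighter probe, at chr1:40182006-40182066, read 536, 44.2 and 68.7 for LPS, LOC1 and LOC3, well above background each time. The differences were -3.49 with an error of 0.23 and -2.86 with an error of 0.225. The intron-spanning probe printed above read 89.4 with LPS, and under either strain its signal, 7.47 and 11.5, did not clear the background. The fall was then at least 5.70-fold for LOC1 and at least 4.2-fold for LOC3, in the direction of the first probe. Among all genes compared, Il1r2 was the 15th lowest of 20018 with LOC1 and the 12th lowest of 19789 with LOC3.

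Il18bp encodes the soluble protein that neutralises IL-18, and was the member with the largest difference upward. Its probe 1 read 671 with LPS, 1110 with LOC1 and 1086 with LOC3, and probe 2 read 306, 477 and 490. Their differences ran from 0.75 to 0.84 with an error of 0.20 or 0.21, and the 2 strains differed by 0.04 at most. Il18bp stood 764th and 898th from the highest gene in the 2 comparisons, short of 2-fold in both.

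Among the receptor chains, Il1rl1 encodes ST2, and its probes separate a membrane and a soluble form. Probe 1, on the transcript of the membrane form, read 534 with LPS, 159 with LOC1 and 172 with LOC3, and the differences were -1.64 and -1.53 with an error of 0.21. Probe 2, on the transcript of the soluble form, was well above background only with LOC3, at 24.0, against 8.73 with LPS and 3.23 with LOC1. It was at least 1.58-fold higher with LOC3 than with LPS, the opposite direction to probe 1, on a signal close to the lowest that counts as above background. Probe 3, on the same transcript as probe 1, stayed under the background limit throughout, at 15.6, 4.62 and 9.24.

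Il1rap, the chain shared by the receptors of IL-1 and IL-33, was measured by 4 probes, of which the 2 brightest were well above background. That of the membrane form read 896, 735 and 843, with differences of -0.17 and 0.02 and an error of 0.20. The probe of the soluble form read 62.5, 48.2 and 44.2, with differences of -0.26 and -0.395 and errors of 0.25 and 0.27. None of these differences reached 2 times its error. The only probe of Il1r1, the signalling receptor of IL-1, read 3.93 with LPS, 3.53 with LOC1 and 4.72 with LOC3, and was not well above background, so that no fold can be given.

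**Figure D2:**
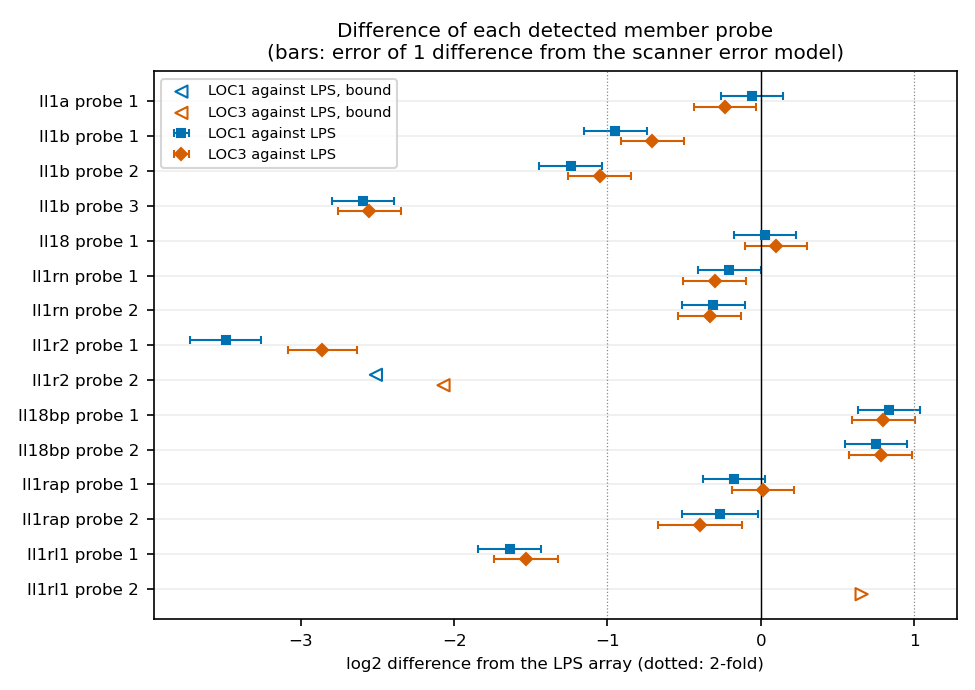
Log2 difference from the LPS array (x axis) for each member probe well above background on at least 1 array of a pair, with LOC1 (squares) and LOC3 (diamonds); bars are the error of 1 difference from the scanner error model and open triangles are bounds that point to the side on which the value lies. Probe 1 of Il1r2 lies at -3.49 and -2.86, probe 3 of Il1b at -2.59 and -2.55, and both probes of Il18bp between 0.75 and 0.84.

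Of the 8 members compared, 2 were at least 2-fold lower with LOC1 by their brightest probe, Il1r2 and Il1rl1, where 3.81% of all 20018 genes were. The same 2 were at least 2-fold lower with LOC3, against 3.18% of 19789 genes. No member was at least 2-fold higher with LOC1, where 2.49% of genes were, or with LOC3, where 2.97% were. The median difference of the 8 was -0.19 with LOC1 and -0.27 with LOC3, beside medians of 0.00 and 0.03 over all genes. The 2 comparisons share the LPS array, so the likeness of their values is not independent. Il1b lay just outside the threshold with LOC1, at -0.95, and its other 2 probes lay beyond it with both strains.

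**Figure D3:**
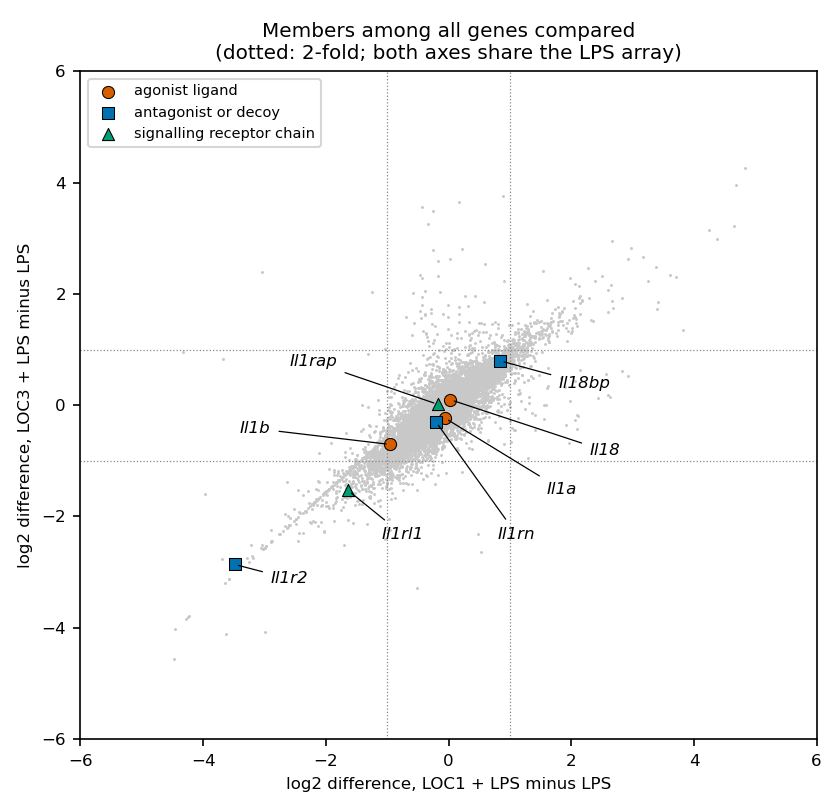
Log2 difference of LOC1 + LPS (x axis) and of LOC3 + LPS (y axis) from LPS for all genes compared in both (grey points) and for the members with a value (agonists as circles, antagonists and decoys as squares, receptor chains as triangles); dotted lines mark 2-fold. Il1r2 and Il1rl1 lie beyond both lines at the lower left, Il18bp lies at 0.84 and 0.80, and Il1a, Il18, Il1rn and Il1rap lie near the centre.

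The agonists were then set against the antagonists and decoys as differences of log2 differences, which any constant scaling of an array leaves as they are. The median of the 3 agonists was -0.06 with LOC1 and -0.23 with LOC3, and that of the 3 antagonists and decoys was -0.205 and -0.30. The gaps of 0.15 and 0.07 were smaller than the error of a single pair of genes, 0.29. In both comparisons the middle agonist was Il1a and the middle antagonist Il1rn, so these gaps are those of that 1 pair. The medians hide a wide spread, since the antagonists and decoys ran from -3.49 to 0.84 with LOC1 and from -2.86 to 0.80 with LOC3. The agonists spanned only -0.95 to 0.03 and -0.71 to 0.10.

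Pair by pair, the balance differed with the ligand. Il1b fell relative to its antagonist Il1rn with LOC1, at -0.74 on the log2 scale or 1.67-fold, and with LOC3, at -0.405 or 1.32-fold, each with an error of 0.29. For Il1a and Il1rn, the pair that set the medians above, the same quantity was 0.15 and 0.07, under the error. Relative to the decoy Il1r2, Il1b was instead higher by 2.54 with LOC1 and 2.16 with LOC3, with errors of 0.31 and 0.30, because Il1r2 was lower by more than Il1b was. Il18 was lower relative to Il18bp, at -0.81 and -0.70, or 1.75-fold and 1.62-fold, and this came from the higher Il18bp while Il18 itself stood at 0.03 and 0.10.

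Between the strains, no member was at least 2-fold apart, where 2.63% of 19381 genes were. By brightest probes, the largest gap was that of Il1r2, which was 1.54-fold higher with LOC3 than with LOC1, a log2 difference of 0.63 with an error of 0.25. Il1b was 1.18-fold higher with LOC3, at 0.24 with an error of 0.20. For the other members compared, the strains lay within 0.19 of each other by brightest probe, while the dim probe 2 of Il1rl1 was at least 1.64-fold higher with LOC3 than with LOC1. With 1 array each, the gap at Il1r2 cannot be told from variation between cultures.

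The ratios deposited by the authors relate each array to unchallenged macrophages, and were checked against the intensities. For all 5507 probes listed for both LPS and LOC1, the 2 sources agreed to within 0.001 on the log2 scale after 1 constant shift. Of the 9 members, 5 were listed at least 2-fold higher with LPS, against 9.7% of gene names, and 1 at least 2-fold lower, against 8.66%. The deposited table holds only some probes, by a rule not given in the sources used here, and both shares count a gene with no listed probe as not called. The 5 were Il1a, Il1b, Il18, Il1rn and Il18bp, all of the ligands together with both soluble inhibitors. The authors' log2 ratio was 13.16 for probe 1 of Il1b, 10.67 for Il1a, 10.31 for probe 3 of Il1b and 7.62 for probe 2 of Il1rn. In these 4 cases the implied signal of unchallenged macrophages, 14.7, 2.99, 3.36 and 12.3, was under 16.3, the lowest intensity well above background on the LPS array. The ratios then give only bounds, of at least 8245-fold, 299-fold, 261-fold and 148-fold in that order.

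Il18 and Il18bp had a measurable level without LPS, and their ratios of 1.985 and 2.72 correspond to 3.96-fold and 6.60-fold. For Il18bp the deposited ratio with LOC1 was 3.595 and with LOC3 3.56, so that both strains placed it still further above unchallenged cells. The ratio of Il18 stayed between 1.985 and 2.12 on the 3 arrays.

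The only member listed at least 2-fold lower was Il1rl1. Its probe 1 had a ratio of -1.75 with LPS, 3.37-fold lower than in unchallenged macrophages, and of -3.36 with LOC1 and -3.25 with LOC3. Its dim probe 2, of the soluble form, was listed at -2.21 with LPS and -3.50 with LOC1 and left blank with LOC3. With LPS and LOC1 the signal of probe 2 did not clear the background. Il1r2 was left blank for LPS, and its ratio rebuilt from the other columns was -0.25, under 2-fold, but it was listed at -3.70 with LOC1 and -3.07 with LOC3. Il1r2 transcripts therefore differed little between unchallenged and LPS-challenged macrophages in these ratios, and were far lower only on the arrays of the treated cells. Neither Il1rap nor Il1r1 was listed.

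**Figure D4:**
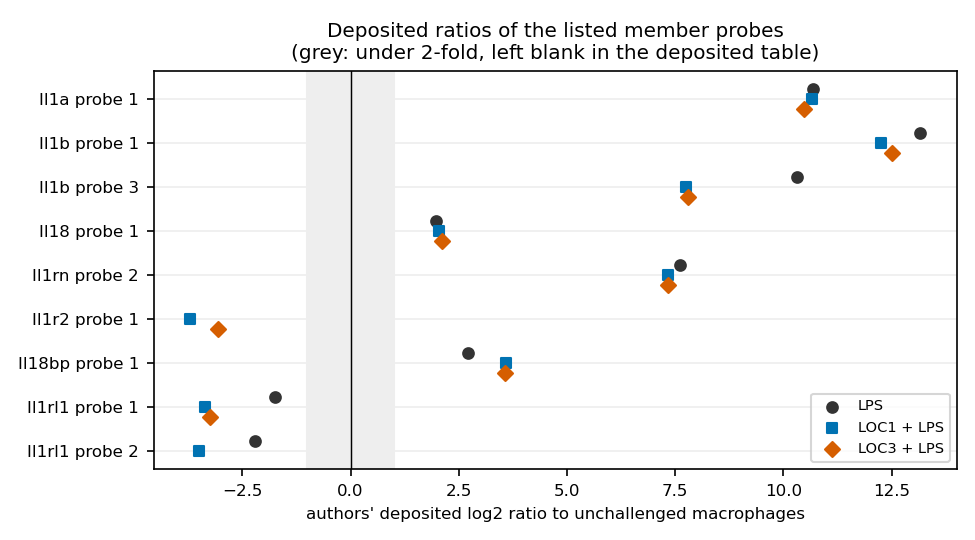
Log2 ratio to unchallenged macrophages as deposited by the authors (x axis) for the member probes that the deposited table lists (y axis), with LPS (circles), LOC1 + LPS (squares) and LOC3 + LPS (diamonds); the grey band is under 2-fold and was left blank. The ligands, Il1rn and Il18bp lie on the right, with Il1b at 13.16 with LPS, and Il1rl1 and Il1r2 lie on the left, where Il1r2 has no LPS symbol.

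The positions of the probes placed the receptor genes side by side on chromosome 1 in mm9, in the order Il1r2, Il1r1, Il1rl2, Il1rl1, Il18r1 and Il18rap, from 40182006 to 40608060. The 3 of these that were well above background, Il1r2, Il1rl1 and Il18rap, were all lower with both strains, by at least 2-fold in each case. Over all genes compared, 3.81% were with LOC1 and 3.18% with LOC3. Il1r2 and Il1rl1 are the members already counted above. Il18rap, the accessory chain of the IL-18 receptor, read 129 with LPS, 41.2 with LOC1 and 52.3 with LOC3, a difference of -1.53 and of -1.20. Il1r1, Il1rl2 and Il18r1 were not well above background on any array. The named genes on either side did not share the fall: Map4k4, before the cluster, was at -0.18 and -0.22, and Slc9a4, after it, was at 0.94 and 0.83. These neighbours were chosen after their values were seen.

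The IL-1 ligand genes lie in 2 stretches of chromosome 2. Beside Il1rn, the IL-36 genes named Il1f9 and Il1f6 on the array were lower with both strains, whereas Il1rn was at -0.21 and -0.30. Il1f9, which encodes IL-36γ, read 184 with LPS, 70.1 with LOC1 and 83.0 with LOC3, a difference of -1.28 and of -1.05. Il1f6, which encodes IL-36α, read 2185, 1043 and 1154, a difference of -0.95 and of -0.82. Il1f8, Il1f5 and Il1f10 were not well above background. Il1f6 was named after its values were seen.

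For the rest of the pathway, genes were counted from lists. Of all genes compared, 3.81% were at least 2-fold lower with LOC1 and 3.18% with LOC3, and 2.49% and 2.97% were higher. Of the 6 other IL-1 family ligands on the array, 3 could be compared with LOC1 and 1 of them was past 2-fold, Il1f9. Of the 6 other receptors, 3 could be compared and 1 was past it, Il18rap. Of the 13 genes for processing and release of IL-1β and IL-18, all were compared, and only Mefv, which encodes the inflammasome sensor pyrin, was past 2-fold, at -1.20 with LOC1 and -0.75 with LOC3. It read 145 with LPS, 58.2 with LOC1 and 80.05 with LOC3. The median of these 13 was -0.06 and -0.03. None of the 17 genes of IL-1 receptor signalling was past 2-fold with either strain, and their differences ran from -0.35 to 0.83 and from -0.37 to 0.895.

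Of the 12 response genes of IL-1 and NF-kB, 3 were at least 2-fold higher with LOC1 and 2 with LOC3. Over all genes compared, 2.49% and 2.97% were. None of the 12 was 2-fold lower, against 3.81% and 3.18% of genes. Their differences went both ways, from -0.80 to 1.90 with LOC1 and from -0.36 to 1.23 with LOC3. The medians of the 12 were 0.19 and 0.18. Il6, a cytokine of the acute phase response, read 36658 with LPS, 89676 with LOC1 and 80066 with LOC3, a difference of 1.40 and of 1.23. Lcn2, which encodes an iron-scavenging protein, read 68833, 130398 and 128129, at 1.03 and 1.0. Cxcl1, a neutrophil chemokine, read 36.05, 124 and 41.9, at 1.90 with LOC1 and 0.32 with LOC3, on a signal far under the 75th percentile. The brightest probe of Il1b lay at -0.95 and -0.71 on the same arrays.

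The genes whose pair of differences was most like that of a member were sought among the 17404 others well above background on all 3 arrays, by the distance in the plane of the 2 log2 differences. Dgat2, Hs6st1 and Emp3 were nearest to Il1b, at 0.01 to 0.02, and 444 genes lay within 0.25 of it. Il1rn had 3309 genes within 0.25, with Gcnt1, Rsad1 and 1 unnamed transcript nearest. Il1r2 had only 2, Saa2 at 0.225 and Adora2b at 0.23, with AF039839 next at 0.32. Each pattern is 2 numbers that share the LPS array, so nearness in it is common at the centre and rare at the edge.

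The sequences before the start sites were read for the members that stood lowest and highest and for Il1b. The RefSeq table of GRCm38.p6 holds 13 promoters for the 9 members, and the 250 bases before each start were searched on both strands. The motifs were the NF-kB consensus, AP-1 as TGANTCA and C/EBP as TTNCNNAA, and matches are in capitals. Il1b is at chr2:129371140-129371389 on the minus strand, Il1r2 at chr1:40085843-40086092 on the plus strand and Il18bp at chr7:102018233-102018482 on the minus strand.
Il1b: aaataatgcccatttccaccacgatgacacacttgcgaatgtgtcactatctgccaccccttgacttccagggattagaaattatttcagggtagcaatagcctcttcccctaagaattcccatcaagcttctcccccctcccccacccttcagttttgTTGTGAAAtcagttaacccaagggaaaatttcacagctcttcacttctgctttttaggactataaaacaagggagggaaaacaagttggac
Il1r2: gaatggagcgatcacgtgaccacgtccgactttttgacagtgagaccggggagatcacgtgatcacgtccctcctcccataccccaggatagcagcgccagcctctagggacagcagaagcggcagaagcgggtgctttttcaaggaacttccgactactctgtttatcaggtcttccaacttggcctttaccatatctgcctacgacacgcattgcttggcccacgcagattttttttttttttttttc
Il18bp: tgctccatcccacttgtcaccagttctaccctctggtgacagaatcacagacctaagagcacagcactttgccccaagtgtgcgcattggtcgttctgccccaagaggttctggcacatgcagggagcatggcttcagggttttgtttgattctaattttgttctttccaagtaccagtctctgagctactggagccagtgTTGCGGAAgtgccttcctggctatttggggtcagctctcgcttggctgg

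A C/EBP match stood 91 to 84 bases before the start of Il1b and 49 to 42 bases before that of Il18bp, and none of the 3 motifs was found in the window of Il1r2. C/EBP matches were found in 9 of the 13 member promoters, which belong to 6 genes, and in 36.8% of all 32851 promoters. The windows of 2 promoters of Il1rn overlap and share a match. An AP-1 match was found in 2 of the 13, of Il1a and Il1rn, against 6.75% of promoters. An NF-kB match was found in 1 of the 13, of Il1r1, against 3.9%. A match says only that the letters are there.

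The labelled cell type was checked against its markers. All 10 macrophage markers were well above background on every array, with differences from -0.89 to 0.67 with LOC1, and Csf1r, the receptor of a macrophage growth factor, was the lowest. Summed over the same 10 probes, to be read only across the arrays, their intensities were 509740, 410676 and 445765 for LPS, LOC1 and LOC3. Of 17 markers of other cell types, 7 were well above background on all arrays and 7 on none, the latter including Ly6g, Cdh1 and Krt8. Their sums were 45763, 34797 and 32189 in the same order, and Siglech alone read 44973, 34019 and 31442. Other markers went up: Ms4a1, a B cell marker, was at 1.06 with LOC1, the only gene of this list past 2-fold, and Cdh5, an endothelial one, was at 0.94 and 0.87. The part of these shifts in the differences of the members was not tested. Actb was at 0.04 and 0.08 and Gapdh at 0.26 and 0.31 relative to LPS.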

How the data were processed

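Total RNA of 3 groups of RAW264.7 macrophages was hybridised to 1 Agilent SurePrint mouse array each, and all arrays came from 1 slide and 1 scan. The intensity of each spot was background-corrected by the authors with Feature Extraction, version 12.0.3.1 per the file headers, and deposited without normalization between arrays. The authors also deposited log2 ratios to unchallenged macrophages, made in GeneSpring per the methods, with cells under 2-fold left blank. These are log2 values with a constant shift per array, their sign follows the intensities, and the medians of the columns are 1.05 for LPS, -1.03 for LOC1 and -1.04 for LOC3. The submitters' processing notes name limma and R 3.2.5.

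Control spots and spots marked as outliers, 118 to 135 per array, were left out, and no spot was saturated. Log2 intensity minus the 75th percentile over all non-control spots was compared between arrays. A gene was its brightest probe, compared where either array of the pair held it well above background, as 47.8% to 51.9% of probes were per array. The lowest intensities so called were 16.3, 14.5 and 19.8 for LPS, LOC1 and LOC3. The threshold was 2-fold. The number of arrays limits the precision. The error model of the scanner gives 0.20 on the log2 scale for a difference of bright spots, and probes printed repeatedly gave an SD of 0.06 for bright and 0.29 for dim ones. Of the 19 member probes, 17 were matched by accession to their gene.

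The members, the gene lists and the tests were chosen with earlier results of these data known. Named genes were all members, list genes past 2-fold with either strain, Actb, Gapdh and the 3 genes nearest to Il1b, Il1rn and Il1r2, beside cell type markers, of which examples were picked after their values were seen, and other genes said to be chosen after their values were seen. A t-test or limma fit needs more than 1 array per group and was left out. The alternatives were median scaling, the percentile over detected probes, quantile normalization, normexp with an offset of 50, the deposited ratios, filters, probe means, outlier spots kept, a 3-fold threshold and 2 errors beside 2-fold. Python 3.11.15, numpy 2.4.6, pandas 2.3.3, matplotlib 3.10.9, R 4.3.3 and limma 3.58.1 were used, and the comparison was tested on simulated data.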

Additional observations from a re-analysis of the deposited data

Results flagged for a closer look

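Il1rap by its brightest probe was at -0.17 on the log2 scale with LOC1 and at 0.015 with LOC3 relative to LPS, opposite directions in the 2 strains. The difference between the strains was not tested, since each was 1 array, and both values were smaller than the scanner error of 0.20.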

How the results depend on the processing

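Il1r2, Il1rl1 and Il1b were lower, and Il18bp higher, with both strains under each of the scalings, filters and probe summaries tried. The ranges were -3.53 to -2.33 for Il1r2 with LOC1 and -2.91 to -2.06 with LOC3, -1.59 to -0.73 and -1.44 to -0.51 for Il1b, and 0.77 to 1.06 and 0.73 to 1.0 for Il18bp. With LOC1, Il1b passed 2-fold under quantile normalization and as the mean of its probes, which made 3 members lower in place of 2. Median scaling raised the median of all genes by 0.22 with LOC1 and 0.20 with LOC3, so that Il1a, Il1rn and Il1rap, at -0.06, -0.21 and -0.17 with LOC1, moved to 0.16, 0.02 and 0.05. It also put 1 member, Il18bp, at least 2-fold higher with LOC1. Of all genes past 2-fold, the share that was higher was 39.6% with LOC1 and 48.3% with LOC3, and 65.7% and 70.3% under median scaling, 50.7% and 58.0% under quantile normalization, and 50.6% and 61.4% under normexp. Il1b minus Il1rn moved to -1.34 with LOC1 and -1.12 with LOC3 when detected probes were averaged. Probes 2 and 3 of Il1b and probe 2 of Il1rn then entered, and probe 3 of Il1b was the lowest of them. In the deposited ratios, which list neither the LPS value of Il1r2 nor the brightest probe of Il1rn, 1 member was at least 2-fold lower with either strain, and the median of the agonists minus that of the antagonists and decoys was -0.90 with LOC1 and -1.03 with LOC3, where only Il18bp remained on the second side. At a 3-fold threshold 1 member was lower with LOC3. The shares of all genes past the threshold under these other settings are not given here, so these counts of members stand without a background. Il1rl1 averaged over its detected probes stood at -0.44 for LOC3, because the dim probe of its soluble form entered.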
